A study of Mus musculus with 16 samples.

Results

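Neuronal calcium buffers and sensors are a set of 10 genes, read here in 16 RNA sequencing libraries of primary mouse cortical neurons. The genes are Calb1 (calbindin), Calb2 (calretinin), Pvalb (parvalbumin), Pcp4, Nrgn (neurogranin), Hpca (hippocalcin), Hpcal1, Hpcal4, Vsnl1 (visinin-like protein) and Ncald (neurocalcin delta). They were chosen by name, with their counts across the 4 groups of these libraries in view, and all 10 were found among the 41388 genes listed in the files. All 10 also passed the filter that left 15103 genes for testing. Because those counts chose the genes, their values are given as a description, with fold changes, standard errors (SE) and 95% intervals but no p-value. A gene is called past the threshold where its p in edgeR's quasi-likelihood test, adjusted over all genes tested, is at or below 0.05.

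The neurons came from Swiss Webster embryos on embryonic day 16 and were transduced on day 5 in vitro with 2 lentiviruses, one with exon 1 of huntingtin (Htt) and one with a short hairpin RNA (shRNA). RNA was taken on day 10. Exon 1 encoded either 72 glutamines (72Q), a mutant tract of the kind that causes Huntington disease, or 25 glutamines (25Q), a wild-type tract. The 4 groups were 72Q with Twist1 shRNA 1, 72Q with Twist1 shRNA 2, 72Q with a luciferase shRNA as control (72Q control) and 25Q with that same luciferase shRNA (25Q control), with n = 4 libraries each. All cultures thus received 2 viruses, none of the groups was untransduced, and 25Q was not combined with a Twist1 shRNA. The 4 experiments (exp107, exp108, exp109a, exp109b) each supplied 1 library of each group. The labels exp109a and exp109b share a number and do not say whether these were separate experiments. They are counted as separate here. The labels do not say whether the experiments used separate litters, so the errors measure the spread between these libraries, which may be technical.

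Calcium entering a neuron is first captured by mobile EF-hand buffers such as calbindin, calretinin and parvalbumin, which shape the size and duration of the calcium signal and in cortex mark classes of inhibitory neurons, calbindin some excitatory neurons too. Calmodulin carries the signal to kinases, phosphatases and cyclases, and the small IQ-motif proteins neurogranin and Pcp4 bind calmodulin and set how much of it is free. Hippocalcin, its relatives Hpcal1 and Hpcal4, visinin-like protein and neurocalcin are neuronal calcium sensors, whose fatty acyl tail in the best studied members moves to membranes when calcium binds.

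Twist1, the gene the hairpins target, encodes a basic helix-loop-helix transcription factor. It averaged 1.57 ± 0.451 CPM (counts scaled to library size, with TMM factors throughout) with Twist1 shRNA 1 and 1.64 ± 0.403 CPM with Twist1 shRNA 2, against 4.15 ± 0.762 CPM in 72Q control (SD, n = 4 each). In 25Q control it averaged 0.271 ± 0.225 CPM. The log2 fold change against 72Q control was -1.35 ± 0.20 (SE) with shRNA 1 and -1.29 ± 0.19 with shRNA 2, with adjusted p of 1.52e-06 and 2.97e-06 in edgeR's quasi-likelihood test with Benjamini-Hochberg adjustment over all genes. Between 72Q control and 25Q control it was 3.47 ± 0.27 (adjusted p = 4.77e-12), and Twist1 was lower with either hairpin in 4 of 4 experiments, as the labels imply. Htt counts do not check the exon 1 virus, since they would not separate endogenous Htt from any reads of the fragment. Htt was at -0.18 ± 0.05 in 72Q control against 25Q control. Against 72Q control it was at 0.05 ± 0.05 with shRNA 1 and at -0.13 ± 0.05 with shRNA 2. Library totals ran from 15814525 to 19533034 counts.

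The promoters are shown because Twist1 binds E-boxes, the letters CANNTG, as a dimer. RefSeq windows of 300 bases, from 250 before to 50 after a start site, were matched by symbol for 7 of the genes and gave 11 windows. The windows below, 5′ to 3′ on the strand of the gene in GRCm38.p6, belong to Pcp4 (chr16:96467356-96467655, plus strand), Nrgn (chr9:37552696-37552995, minus strand) and Hpca (its most upstream window, chr4:129121698-129121997, minus strand). Pcp4 and Hpca showed, after Ncald, the largest excess of shRNA 1 over shRNA 2, and Nrgn had the highest level. Capitals mark each E-box.
Pcp4: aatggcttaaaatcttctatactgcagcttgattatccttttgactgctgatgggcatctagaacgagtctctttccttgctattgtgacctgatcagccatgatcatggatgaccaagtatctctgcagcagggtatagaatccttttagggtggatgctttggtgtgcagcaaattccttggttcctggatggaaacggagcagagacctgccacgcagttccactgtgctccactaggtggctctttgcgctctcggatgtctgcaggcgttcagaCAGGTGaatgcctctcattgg
Nrgn: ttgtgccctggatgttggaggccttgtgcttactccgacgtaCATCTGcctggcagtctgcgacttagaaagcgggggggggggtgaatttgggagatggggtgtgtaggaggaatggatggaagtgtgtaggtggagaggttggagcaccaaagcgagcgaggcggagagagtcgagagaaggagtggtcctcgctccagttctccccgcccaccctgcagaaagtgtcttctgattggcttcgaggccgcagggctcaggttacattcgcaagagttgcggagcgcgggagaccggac
Hpca: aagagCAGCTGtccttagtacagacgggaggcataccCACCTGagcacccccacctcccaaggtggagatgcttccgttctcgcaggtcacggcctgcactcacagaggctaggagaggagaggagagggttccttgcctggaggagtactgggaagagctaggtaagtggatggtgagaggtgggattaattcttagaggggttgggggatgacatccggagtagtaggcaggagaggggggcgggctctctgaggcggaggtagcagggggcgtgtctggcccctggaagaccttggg
The palindromic motif reads the same on both strands. It lay in 8 of the 11 windows, and 72.3% of all 32851 windows in the table held it. None of the 11 held an E-box pair 5 bases apart, a spacing found in 0.767% of all windows. A match is a description of the letters in these windows only.

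Levels were first ordered per transcript length, on the RPKM scale the authors deposited (reads scaled to library size and to the listed gene length). This scale carries no TMM factor, so differences between groups can change sign against the CPM used elsewhere. Nrgn with shRNA 2, for example, averaged above 72Q control in RPKM but below it in CPM (598.0 against 613.3). Nrgn ranked highest in all 4 groups, at 510.4 RPKM with shRNA 1, 437.6 RPKM with shRNA 2, 426.2 RPKM in 72Q control and 642.7 RPKM in 25Q control. Vsnl1 was next, at 196.8, 170.2, 151.6 and 256.5 RPKM in the same order, and Hpca followed at 126.7, 93.7, 70.0 and 102.9 RPKM. Calb2 and Calb1 ranked below all of the sensors, Calb1 at 7.73, 7.99, 3.38 and 10.6 RPKM. Pvalb was near the bottom of what these libraries can measure, with 4 to 17 counts per library. The order at both ends was therefore shared by the groups, and the changes of rank, though not of level, lay in the middle. Some of these ranks were close, as in 25Q control, where Pcp4 (21.1 RPKM) and Hpcal1 (20.2 RPKM) had overlapping ranges. Pcp4 ranked the fifth of the genes with either Twist1 shRNA, the seventh in 72Q control and the sixth in 25Q control. Ncald ranked the sixth with shRNA 1, the seventh with shRNA 2, the fifth in 72Q control and the fourth in 25Q control.

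**Figure D1:**
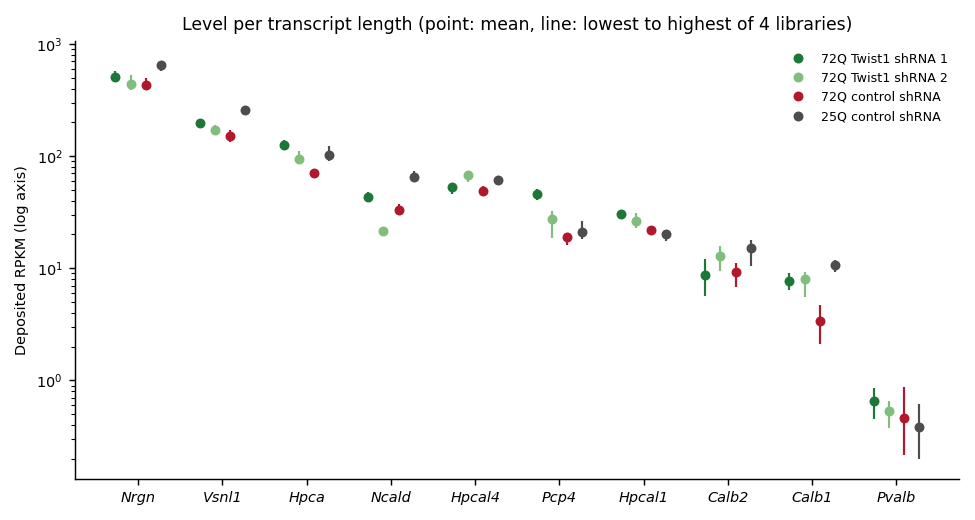
Deposited RPKM on a log axis for each gene, with the mean of 4 libraries as a point and the lowest to highest library as a line, for 72Q with Twist1 shRNA 1, 72Q with Twist1 shRNA 2, 72Q control and 25Q control from left to right. Nrgn, Vsnl1 and Hpca lead in every group, Calb1 and Pvalb stand last, and the 72Q control mean of Calb1 is 3.38 RPKM against 10.6 RPKM in 25Q control.

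Calb1, on chromosome 4 (15881264 to 15908064, plus strand, GRCm38), encodes calbindin, a fast and abundant buffer of principal neurons and of some interneurons. In exp107, exp108, exp109a and exp109b it stood at 41.6, 32.5, 44.7 and 30.4 CPM with Twist1 shRNA 1 and at 43.3, 36.0, 41.1 and 25.1 CPM with Twist1 shRNA 2. In 72Q control it stood at 20.3, 9.97, 22.8 and 12.0 CPM, and in 25Q control at 49.9, 50.8, 60.8 and 61.7 CPM. The lowest 25Q library lay above every 72Q library, and the highest 72Q control library lay below every Twist1 shRNA library, so 3 separate bands formed, with both hairpins in the middle one. The log2 fold change was -1.81 ± 0.20 between 72Q control and 25Q control, a 3.5-fold lower level, which is the largest difference of the set. Against 72Q control it was 1.21 ± 0.20 with shRNA 1 and 1.17 ± 0.20 with shRNA 2. The hairpins differed by 0.04 ± 0.18, with a 95% interval from -0.38 to 0.45, and the mean of the 2 Twist1 shRNA groups differed from 25Q control by -0.62 ± 0.15. Calb1 was also the member with the widest spread inside a group apart from Pvalb, with a coefficient of variation of 38.5% in 72Q control against 11.3% in 25Q control.

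Calb2, on chromosome 8 (110142539 to 110168206, minus strand), encodes calretinin, a buffer closely related to calbindin. It read 11.7, 7.97, 17.3 and 12.7 CPM with shRNA 1 and 16.2, 12.5, 21.03 and 18.7 CPM with shRNA 2 in the experiments taken in the same order. It read 13.2, 9.50, 16.0 and 13.5 CPM in 72Q control and 23.4, 15.9, 28.0 and 26.5 CPM in 25Q control. The experiments moved together, exp108 giving the lowest and exp109a the highest library in each group, so neighbouring groups overlapped although the differences within experiments were steady. Calb2 was lower in 72Q control than in 25Q control in all 4 experiments, at -0.84 ± 0.08. With shRNA 2 it was 0.39 ± 0.08 above 72Q control, and with shRNA 1 the difference was -0.08 ± 0.08, with an interval from -0.25 to 0.08. Calb1 and Calb2 thus had like differences between 72Q and 25Q in sign but not with shRNA 1. Without the experiment as a term, Calb2 with shRNA 2 was no longer past the threshold.

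Pvalb, the buffer of fast-spiking interneurons, is on chromosome 15 (78191114 to 78206400, minus strand) and had 47 counts in all with shRNA 1, 40 with shRNA 2, 34 in 72Q control and 28 in 25Q control. Group means were 0.675, 0.519, 0.468 and 0.431 CPM in that order, and the ranges of all groups overlapped. The log2 difference of 72Q control from 25Q control was 0.10, with a 95% interval from -0.53 to 0.74, so a change of that size in either direction was not detectable at this depth. Parvalbumin is known to appear late in cortical development.

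**Figure D2:**
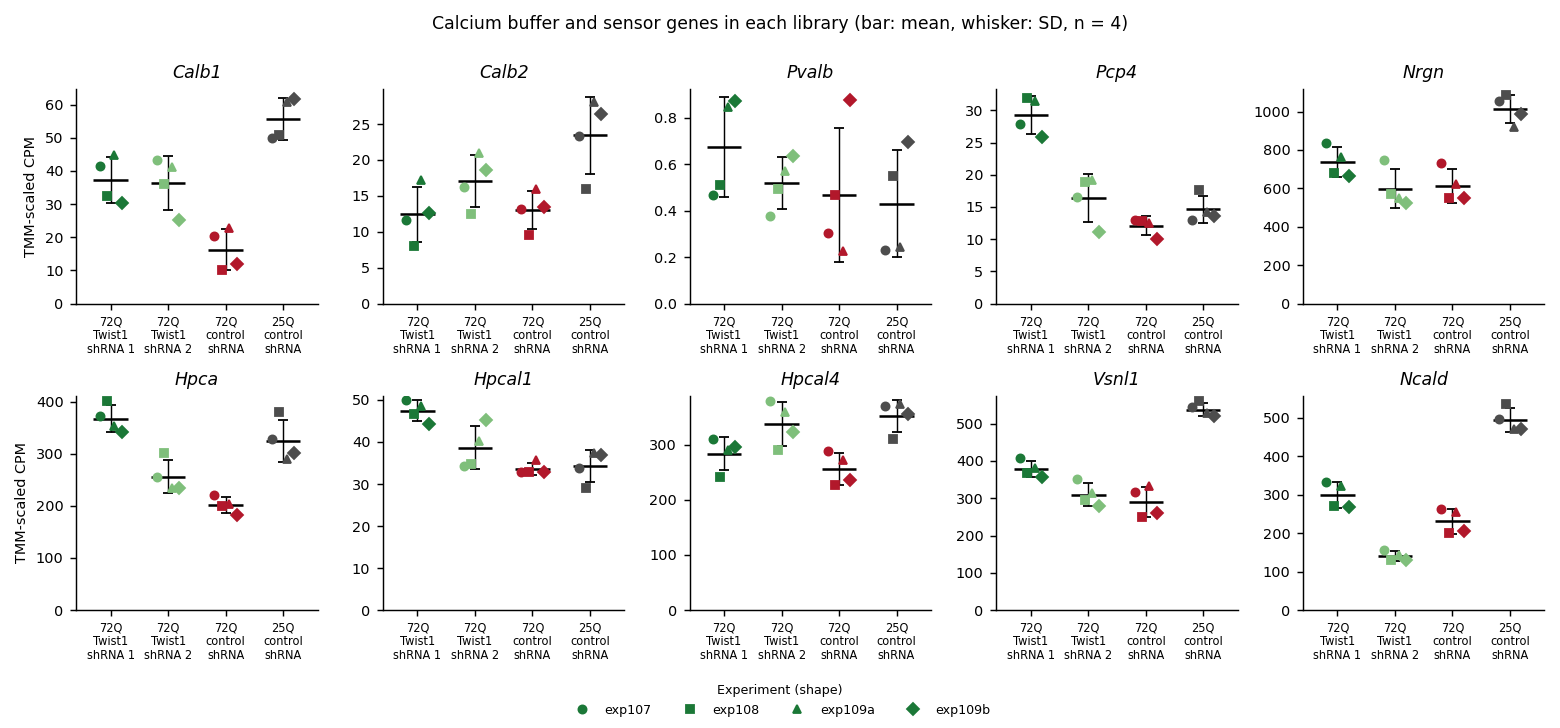
TMM-scaled CPM of each gene (1 panel a gene, linear axis from 0) in 72Q with Twist1 shRNA 1, 72Q with Twist1 shRNA 2, 72Q control and 25Q control; each symbol is 1 library, its shape the experiment, bars are means and whiskers SD over 4 libraries. Calb1 forms 3 bands, Ncald is lowest with shRNA 2 (129.9 to 156.9 CPM), and Pcp4 is highest with shRNA 1 (25.9 to 31.9 CPM).

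Nrgn, on chromosome 9 (37544492 to 37552904, minus strand), encodes neurogranin, the postsynaptic calmodulin-binding protein of forebrain neurons. It stood at 838.5, 679.6, 765.4 and 666.4 CPM with shRNA 1 and at 745.9, 572.5, 549.4 and 524.1 CPM with shRNA 2. It stood at 733.7, 547.5, 624.4 and 547.8 CPM in 72Q control and at 1057, 1086, 919.3 and 988.0 CPM in 25Q control. All 25Q libraries lay above the libraries of the 3 other groups, which overlapped with each other. The log2 fold change of 72Q control against 25Q control was -0.73 ± 0.06. Against 72Q control it was 0.27 ± 0.06 with shRNA 1, in the same direction in 4 of 4 experiments, and -0.04 ± 0.06 with shRNA 2, with an interval from -0.17 to 0.09. The shRNA 1 difference was not past the threshold without the experiment as a term. Against 25Q control the mean of the 2 hairpin groups was at -0.62 ± 0.05.

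Pcp4, on chromosome 16 (96467606 to 96525793, plus strand), encodes a small IQ-motif protein that speeds the exchange of calcium on calmodulin. It stood at 28.0, 31.9, 31.5 and 25.9 CPM with shRNA 1 and at 16.5, 18.9, 19.2 and 11.1 CPM with shRNA 2. It stood at 13.0, 12.9, 12.5 and 9.95 CPM in 72Q control and at 13.0, 17.7, 14.3 and 13.5 CPM in 25Q control. Every shRNA 1 library lay above every other library of the series, 25Q included, and in no other gene of the set did shRNA 1 stand apart above all other groups. The log2 fold change against 72Q control was 1.27 ± 0.09 with shRNA 1, a 2.41-fold higher level, and 0.43 ± 0.09 with shRNA 2, and the hairpins differed by 0.84 ± 0.08. Between 72Q control and 25Q control it was -0.27 ± 0.09. This difference fell short of the threshold in 8 of 16 alternatives (the range was -0.33 to -0.14). Among them were upper-quartile scaling and a block with exp109a and exp109b joined. Pcp4 shares 243 exonic bases, 37.9% of its exonic length, with Igsf5 on the same strand in GENCODE M21, so reads there could have been left uncounted or assigned to either gene.

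Hpca, on chromosome 4 (129111570 to 129122036, minus strand), encodes hippocalcin, a sensor of pyramidal neurons with a part in the slow afterhyperpolarization. It stood at 372.4, 400.9, 353.5 and 341.5 CPM with shRNA 1 and at 255.8, 300.9, 234.7 and 234.4 CPM with shRNA 2. It stood at 220.3, 200.7, 204.5 and 182.1 CPM in 72Q control and at 328.9, 381.0, 290.1 and 301.0 CPM in 25Q control. The 72Q control libraries lay below all others, and the shRNA 1 libraries overlapped with the upper 25Q library. Relative to 25Q control, Hpca was at -0.68 ± 0.05 in 72Q control. Relative to 72Q control it was at 0.86 ± 0.05 with shRNA 1 and at 0.34 ± 0.05 with shRNA 2. The hairpins differed by 0.52 ± 0.05. Their means were 367.1 CPM with shRNA 1 and 256.4 CPM with shRNA 2, on either side of 325.3 CPM in 25Q control. The mean of both hairpin groups, which lies between them, differed from 25Q control by -0.08 ± 0.04, with an interval from -0.17 to 0.01. Leaving out the 25Q control library of exp109a or the shRNA 2 library of exp108 put that difference past the threshold, and with no scaling beyond library totals it was 0.09.

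Hpcal1 and Hpcal4 are close relatives of hippocalcin. Hpcal1, on chromosome 12 (17690814 to 17791926, plus strand), stood at 49.98, 46.8, 48.7 and 44.3 CPM with shRNA 1 and at 34.4, 34.8, 40.2 and 45.3 CPM with shRNA 2. It stood at 32.8, 32.9, 35.6 and 32.9 CPM in 72Q control and at 33.7, 29.0, 37.3 and 37.0 CPM in 25Q control. The 72Q control libraries lay inside the range of the 25Q libraries, with a difference of -0.03 ± 0.07 and an interval from -0.17 to 0.12. It was 0.50 ± 0.07 above 72Q control with shRNA 1. With shRNA 2 it was 0.20 ± 0.07 above, a difference that was not past the threshold without the shRNA 2 library of exp109b, without the 72Q control library of exp109b or without the experiment as a term. Of its 50-base words, 6.5% also occur in other annotated genes, so some of its reads are uncertain.

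Hpcal4, on chromosome 4 (123183227 to 123194701, plus strand), stood at 309.6, 241.4, 289.6 and 294.9 CPM with shRNA 1 and at 378.5, 289.9, 359.2 and 323.2 CPM with shRNA 2. It stood at 289.0, 226.2, 272.7 and 236.1 CPM in 72Q control and at 370.5, 310.9, 373.0 and 355.4 CPM in 25Q control. The order of its hairpins was the reverse of that of Hpca, with shRNA 2 the higher in each experiment. Against 72Q control the log2 fold change was 0.15 ± 0.04 with shRNA 1 and 0.40 ± 0.04 with shRNA 2, and the hairpins differed by -0.25 ± 0.04. The value of 72Q control against 25Q control was -0.46 ± 0.04. The small shRNA 1 difference was lost in 4 of 16 alternatives, among them leaving out the shRNA 1 or the 72Q control library of exp109b.

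Vsnl1, on chromosome 12 (11325247 to 11436649, minus strand), encodes visinin-like protein, a sensor released by injured neurons and measured as such in cerebrospinal fluid. It stood at 408.3, 367.9, 379.9 and 357.4 CPM with shRNA 1 and at 350.4, 295.7, 313.1 and 278.0 CPM with shRNA 2. It stood at 317.4, 251.0, 332.8 and 260.5 CPM in 72Q control and at 543.7, 559.8, 528.6 and 520.0 CPM in 25Q control. The 25Q libraries were tightly grouped, with a coefficient of variation of 3.25% against 14.0% in 72Q control, and lay above all other libraries. The difference of 72Q control from 25Q control was -0.90 ± 0.06. Against 72Q control Vsnl1 was at 0.39 ± 0.06 with shRNA 1 and at 0.09 ± 0.06 with shRNA 2 (interval -0.02 to 0.21), the second past the threshold only with no scaling beyond library totals or without the 72Q control library of exp109a.

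Ncald, on chromosome 15 (37366175 to 37792570, minus strand), encodes neurocalcin delta, a membrane-binding sensor that interacts with clathrin and actin. It stood at 333.6, 269.7, 323.2 and 268.9 CPM with shRNA 1 and at 156.9, 129.9, 142.3 and 130.1 CPM with shRNA 2. It stood at 261.9, 201.2, 254.9 and 205.6 CPM in 72Q control and at 495.8, 537.0, 470.7 and 471.5 CPM in 25Q control. Ncald was the member in which all 4 groups were apart from each other, and the hairpins lay on opposite sides of 72Q control in each experiment. The log2 fold change against 72Q control was 0.37 ± 0.06 with shRNA 1 and -0.72 ± 0.06 with shRNA 2, and the hairpins differed by 1.09 ± 0.06, a 2.13-fold difference. Against 25Q control it was -1.11 ± 0.06 in 72Q control and -1.28 ± 0.05 in the mean of both hairpin groups. Annotated genes on either strand share exonic bases with Ncald, up to 586 bases (8.39% of its length), and whether the counting used strand is not stated.

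**Figure D3:**
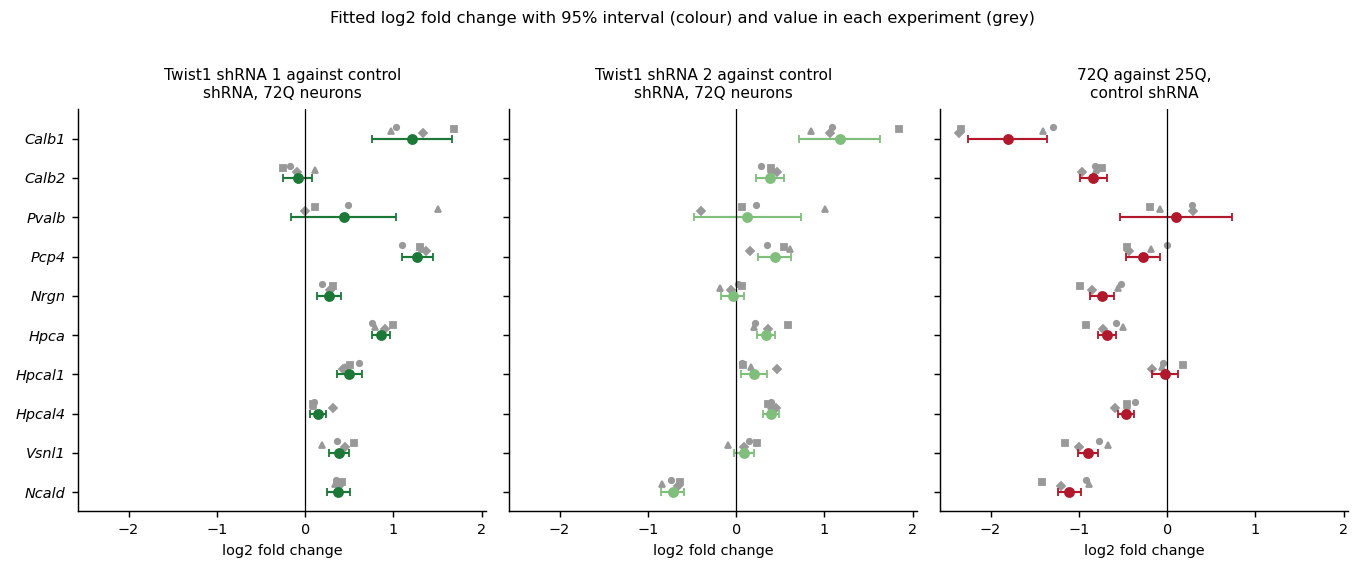
Fitted log2 fold change of each gene with its 95% interval (coloured points and bars) and the log2 ratio in each of 4 experiments (grey, shapes as in the plot of levels) for Twist1 shRNA 1 and Twist1 shRNA 2 against 72Q control, and 72Q control against 25Q control. The hairpins give like values for Calb1 (1.21 and 1.17) and opposite values for Ncald (0.37 and -0.72).

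Counted over the set, 8 of 10 genes were lower in 72Q control than in 25Q control past the threshold, none was higher, and 2 (Pvalb and Hpcal1) did not pass. Of all genes tested, 57.1% passed in this comparison, 29.3% higher and 27.8% lower, and groups did not overlap in 38.3%, against 7 of the 10. The median log2 fold change was -0.71 over the set and 0.03 over all genes tested. The share of higher among all genes past the threshold was 51.4%, and it was 60.7% with upper-quartile factors and 69.6% with no scaling beyond library totals, where the median of all genes lay at 0.16. Under both of those scalings 7 of the 8 genes remained lower past the threshold, and Pcp4 did not.

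With shRNA 1, 8 of 10 genes were higher than in 72Q control past the threshold and none was lower, with a median of 0.41 against -0.01 over all genes. The background was 46.3% of genes past the threshold, 22.7% higher and 23.6% lower, with groups apart in 29.0%, against 6 of the 10. With shRNA 2, 6 were higher, Ncald alone was lower and 3 (Pvalb, Nrgn and Vsnl1) did not pass, with a median of 0.27 against 0.00154 over all genes. There the background was 41.8%, 20.2% higher and 21.5% lower, with groups apart in 22.4%, against 4 of the 10. Both hairpins were set against the same 72Q control libraries, so the 2 columns of values are not independent. The share of higher calls over all genes with shRNA 2 was 48.5%, and 65.3% with no scaling beyond library totals.

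Set directly against each other, shRNA 1 gave the higher level for 6 genes and shRNA 2 for Calb2 and Hpcal4, while Calb1 and Pvalb did not pass. Of all genes, 53.2% passed, 27.3% higher and 25.9% lower with shRNA 1, and groups were apart in 33.2%, against 4 of the 10. The share of higher among all genes past the threshold was 51.3%, and 36.5% with no scaling beyond library totals. Twist1 itself differed between the hairpins by -0.07 ± 0.22, with an interval from -0.53 to 0.39 and only 16 to 40 counts per hairpin library. Whether the level of Twist1 has a part in the differences between the hairpins was not tested. Without the experiment as a term, the Calb2 and Hpcal4 differences were not past the threshold.

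The mean of both hairpin groups stayed below 25Q control for 6 of the 10 genes past the threshold (Calb1, Calb2, Nrgn, Hpcal4, Vsnl1 and Ncald) and lay above it for Pcp4 (0.58 ± 0.08) and Hpcal1 (0.33 ± 0.06). Over all genes 62.5% passed, 30.4% higher and 32.0% lower, and groups were apart in 24.3%, against 4 of the 10. Hpcal4, at -0.19 ± 0.04, was not past the threshold with no scaling beyond library totals or without the experiment as a term. For Pcp4, Hpcal1 and Hpcal4 this mean joins hairpins that differed. Pcp4 averaged 29.3 CPM with shRNA 1 and 16.4 CPM with shRNA 2, against 14.6 CPM in 25Q control. Hpcal1 averaged 47.4 and 38.7 CPM against 34.2 CPM, and Hpcal4 283.9 and 337.7 CPM against 352.4 CPM. In each of them the shRNA 2 libraries overlapped with 25Q control. Neither hairpin alone was tested against 25Q control. The share of higher over all genes past the threshold was 48.7%, 61.4% with upper-quartile factors and 70.3% with no scaling. Summed over the 10 genes, mean levels were 2193 CPM with shRNA 1, 1750 CPM with shRNA 2, 1668 CPM in 72Q control and 2851 CPM in 25Q control.

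The genes did not share a single pattern. After centring on the experiment, the closest pair over the 16 libraries was Nrgn and Vsnl1, with Pearson's r of 0.976 on log2 CPM, and the most opposed pair was Calb2 and Hpcal1, with r of -0.47. Nrgn, Vsnl1 and Ncald resembled each other (0.92 between Nrgn and Ncald), as did Calb2 and Hpcal4 (0.84) and Pcp4 and Hpcal1 (0.81). These were not separate groups. Calb1 was about as close to Hpcal4 (0.83), Vsnl1 (0.82) and Hpca (0.80), and Pcp4 to Hpca (0.77). These are descriptions over libraries that share experiments and 4 groups, and the spread between group means enters each r. Among the 11127 genes compared, those most like the members by the same measure were Ak5 for Calb1 (0.982), Lrrc73 for Calb2 (0.985), Stmn2 for Nrgn (0.993) and Stum for Hpca (0.987). They were Igdcc4 for Hpcal1 (0.946), Arhgap26 for Hpcal4 (0.966), Grm3 for Vsnl1 (0.995) and Wscd2 for Ncald (0.995).

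**Figure D4:**
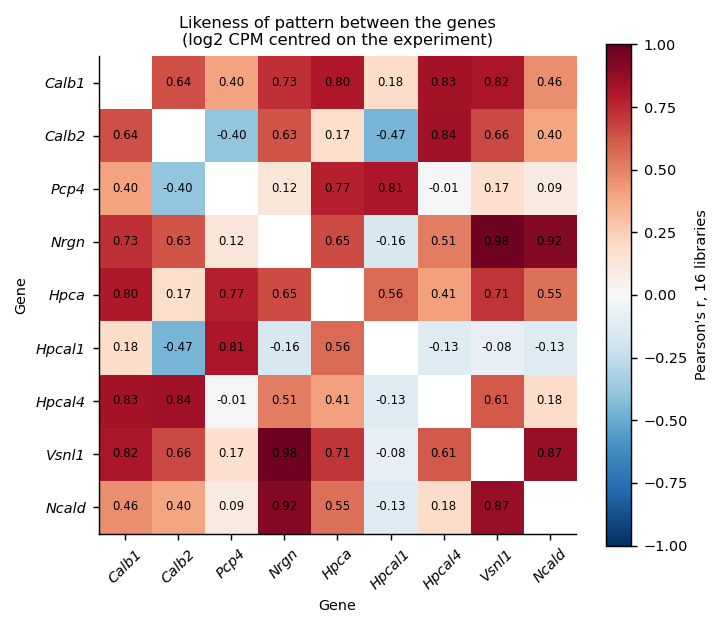
Pearson's r between 9 of the genes over 16 libraries, computed on log2 CPM centred on the experiment, with red for positive and blue for negative r. Nrgn, Vsnl1 and Ncald form a group of high r (0.98, 0.92 and 0.87), while Hpcal1 is near or below 0 with all of them.

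Cell type markers moved in the same libraries. Interneuron markers summed to 919 to 1310 CPM with shRNA 1, 890 to 1176 CPM with shRNA 2, 759 to 1164 CPM in 72Q control and 1228 to 1541 CPM in 25Q control, with 13 of 19 lower and 1 higher in 72Q control than in 25Q control past the threshold. Excitatory neuron markers summed to 1256 to 1468, 1017 to 1212, 988 to 1304 and 1905 to 2111 CPM in the same order, with 12 of 14 lower and 2 higher. Pan-neuronal markers summed to 9348 to 10244, 7999 to 9013, 8539 to 9756 and 11879 to 12869 CPM, with 8 of 14 lower and 1 higher. Against 72Q control, 1 pan-neuronal marker was lower and 5 higher with shRNA 1, and 8 were lower and 4 higher with shRNA 2. Of the interneuron markers 5 were lower and 6 higher with shRNA 1, and 3 were lower and 5 higher with shRNA 2. Of the excitatory markers 5 were lower and 4 higher with shRNA 1, and 5 were lower and 3 higher with shRNA 2. Of all genes, 27.8% were lower and 29.3% higher in 72Q control than in 25Q control. Against 72Q control, 23.6% were lower and 22.7% higher with shRNA 1, and 21.5% and 20.2% with shRNA 2. The interneuron counts with either hairpin lay near those shares and are not a result about these markers. Neuronal markers were thus lower in 72Q control along with the calcium genes, in excitatory and inhibitory lists alike, and their part in the result was not tested. Fewer neurons of a type and less RNA per neuron cannot be told apart in bulk RNA.

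Markers of other cells were summed in the same way, and their part in the results was not tested either. The shares over all genes given for the neuronal markers apply to these counts too. Astrocyte markers summed to 2860 to 3089, 2255 to 2825, 2744 to 3120 and 2604 to 2827 CPM in shRNA 1, shRNA 2, 72Q control and 25Q control, with 6 of 10 higher in 72Q control than in 25Q control and none lower, with 1 of 10 higher and 1 lower with shRNA 1 than in 72Q control, and with 6 of 10 lower and none higher with shRNA 2. Oligodendrocyte lineage markers summed to 874 to 979, 751 to 872, 1058 to 1199 and 1024 to 1149 CPM, and 5 of 9 fell with shRNA 1 and 6 of 9 with shRNA 2, with none rising. Microglia markers summed to at most 13.3 CPM and markers of endothelial, mural and meningeal cells to at most 29.6 CPM in any library. Among them Tmem119 and Cldn5 were at 0 in all 25Q libraries and C1qb in all shRNA 2 libraries. Neuronal, astrocyte and oligodendrocyte lineage markers were thus read well above those of the remaining cell types.

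The rest of the calcium machinery was counted from lists that hold none of the 10 genes, and here adjusted p-values are of edgeR's quasi-likelihood test with Benjamini-Hochberg adjustment over all genes. The lists too were chosen with earlier results of these data known, and most genes named are the extremes of their list. Their adjusted p-values thus describe these libraries and are not an independent test of the lists. Of the 5 measured relatives among the neuronal calcium sensors, 3 fell in 72Q control against 25Q control and none rose, with a median log2 fold change of -0.47 against 0.03 over all genes. Of all genes, 27.8% were lower and 29.3% higher in 72Q control, 23.6% and 22.7% with shRNA 1, and 21.5% and 20.2% with shRNA 2. With no scaling beyond library totals all 5 sensor relatives passed in 72Q control, Kcnip1 and Kcnip3 as higher. The potassium channel-interacting sensors Kcnip2 (-1.21 ± 0.09, adjusted p = 1.61e-11) and Kcnip4 (-1.21 ± 0.13, adjusted p = 4.05e-06) fell, as did Ncs1 (-0.47 ± 0.05, adjusted p = 4.97e-10). With shRNA 1, 3 of the 5 rose and none fell (median 0.29, against -0.01 over all genes), Kcnip4 by 0.97 ± 0.13 (adjusted p = 4.96e-05) and Kcnip2 by 0.80 ± 0.09 (adjusted p = 5.09e-08). With shRNA 2, 2 rose (Kcnip4 by 0.63 ± 0.14, Kcnip1 by 0.34 ± 0.06) and 2 fell, Ncs1 at -0.66 ± 0.05 (adjusted p = 1.49e-12) and Kcnip3 at -0.23 ± 0.06, the last not past the threshold without the shRNA 2 library of exp109a. As with Ncald, the level of Ncs1 was higher with shRNA 1 than with shRNA 2, by 0.76 ± 0.05 (adjusted p = 2.38e-14), while its value against 72Q control with shRNA 1, 0.10 ± 0.05, did not pass (adjusted p = 0.0687).

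Of 6 measured calmodulin and calmodulin-like genes, 5 fell in 72Q control against 25Q control and none rose (median -0.65). The shares over all genes were 27.8% lower and 29.3% higher there. They were 23.6% and 22.7% with shRNA 1, and 21.5% and 20.2% with shRNA 2. The calmodulin-like Caln1 fell in 72Q control (-1.03 ± 0.06, adjusted p = 4.90e-14), and so did Cabp1 (-0.95 ± 0.13, adjusted p = 2.05e-05). With shRNA 1, 3 rose, among them Cabp1 (0.47 ± 0.13) and Calm2 (0.30 ± 0.04), and 2 fell, among them Calm3 (-0.14 ± 0.04). With shRNA 2, 2 rose, among them Caln1 (0.32 ± 0.06), and none fell. Without the experiment as a term 2 of the list passed with shRNA 1 and 1 with shRNA 2, and Calm2, Calm3 and Caln1 were no longer among them.

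The list of other buffers and EF-hand proteins had no common direction. Of 22 measured genes, 5 rose and 4 fell in 72Q control against 25Q control, 5 rose and 4 fell with shRNA 1, and 6 rose and 1 fell with shRNA 2. The shares over all genes, higher and lower, were 29.3% and 27.8%, 22.7% and 23.6%, and 20.2% and 21.5% in that order. The counts in 72Q control and with shRNA 1 lay near or below those shares and are not a result about the list. The medians were 0.03, 0.03 and -0.06 in that order, and 13, 13 and 15 of the 22 genes did not pass. Necab1, a neuronal EF-hand protein, averaged 211 ± 27.4 CPM with shRNA 1, 131 ± 26.7 CPM with shRNA 2, 86.3 ± 23.8 CPM in 72Q control and 254 ± 15.0 CPM in 25Q control. It fell in 72Q control (-1.59 ± 0.14, adjusted p = 3.52e-06) and rose by 1.31 ± 0.14 with shRNA 1 and by 0.60 ± 0.14 with shRNA 2 (adjusted p of 2.43e-05 and 0.00593). The hairpins differed by 0.70 ± 0.14 for Necab1 (adjusted p = 0.00145). Necab3 fell in 72Q control (-1.38 ± 0.10) and rose with shRNA 1 (1.08 ± 0.10), while Necab2 fell with shRNA 1 (-0.60 ± 0.06), so members of one family differed in sign. Among the rises in 72Q control were Gca (0.29 ± 0.10, lost without the 72Q control library of exp107) and Pef1 (0.26 ± 0.06), small EF-hand proteins found in many tissues. Efhd2 fell with shRNA 1 (-0.60 ± 0.07) and with shRNA 2 (-0.24 ± 0.07, not past the threshold without the experiment as a term), and Chp1 rose with shRNA 2 (0.42 ± 0.05). The IQ-motif relatives of Nrgn and Pcp4 are Gap43, a calmodulin-binding protein of growing axons, and Pcp4l1. Gap43 fell in 72Q control (-0.40 ± 0.05, adjusted p = 1.80e-08) and fell with shRNA 1 (-0.26 ± 0.05), and did not pass with shRNA 2. Pcp4l1 rose with shRNA 1 (0.67 ± 0.05, adjusted p = 2.25e-11) as Pcp4 did, fell with shRNA 2 (-0.24 ± 0.06, not past the threshold without the experiment as a term) and was at 0.16 ± 0.06 in 72Q control, a rise lost in 7 alternatives.

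Most effectors of calmodulin fell in 72Q control. Of 29 measured genes, 22 fell and 4 rose in 72Q control against 25Q control, with a median of -0.55 over the list and 0.03 over all genes, and the background of genes lower was 27.8%. Nos1, the neuronal nitric oxide synthase, fell (-1.85 ± 0.12, adjusted p = 4.78e-08), as did the kinase subunit Camk2b (-1.49 ± 0.10, adjusted p = 8.37e-08). The cyclic nucleotide phosphodiesterase Pde1c rose (1.26 ± 0.13, adjusted p = 1.68e-09), and the calcineurin regulator Rcan3 rose (0.76 ± 0.06, adjusted p = 3.93e-12). With shRNA 1, 17 rose and 5 fell (median 0.23), Pde1a by 0.88 ± 0.06 (adjusted p = 1.46e-13) and Pde1b by 0.75 ± 0.07 among the rises, the calcium-stimulated cyclase Adcy1 (-0.96 ± 0.08, adjusted p = 5.93e-08) and Camkk2 (-0.56 ± 0.10) among the falls. With shRNA 2, 8 rose and 7 fell (median 0.03), with Pde1a (0.81 ± 0.06, adjusted p = 1.33e-12) and Adcy8 (0.39 ± 0.07) rising and Camk2n2 (-0.50 ± 0.06) and Rcan3 (-0.45 ± 0.06) falling. Over all genes 22.7% were higher and 23.6% lower with shRNA 1, and 20.2% and 21.5% with shRNA 2. The counts with shRNA 2 lay near those shares and are not a result about the list. Without the experiment as a term, 9 of the list passed with shRNA 2. Pde1a differed between the hairpins by 0.06 ± 0.06, and Nos1 did not pass against 72Q control, at -0.0039 ± 0.14 with shRNA 1 and 0.03 ± 0.13 with shRNA 2 (adjusted p of 0.985 and 0.903).

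Among genes of calcium extrusion, stores and mitochondrial uptake, 8 of 35 rose and 15 fell in 72Q control against 25Q control, 11 rose and 8 fell with shRNA 1, and 8 rose and 7 fell with shRNA 2, with medians of -0.14, 0.08 and 0.01. The shares over all genes were 29.3% higher and 27.8% lower in 72Q control, 22.7% and 23.6% with shRNA 1, and 20.2% and 21.5% with shRNA 2. The falls with shRNA 1 and both counts with shRNA 2 lay close to those shares and are not a result about the list. The ryanodine receptors Ryr3 and Ryr2, release channels of the endoplasmic reticulum, fell in 72Q control, with values of -1.07 ± 0.07 for Ryr3 and -1.02 ± 0.06 for Ryr2 (adjusted p = 1.39e-13). The mitochondrial uptake regulator Micu3 rose (0.88 ± 0.08), and so did the store sensor Stim1 (0.70 ± 0.05). Orai2, a subunit of the store-operated channel, had the largest fall with shRNA 1 of any list gene named, at -2.00 ± 0.06 against 72Q control (adjusted p = 5.38e-21). Its level was 16.2 ± 1.65 CPM with shRNA 1, 52.9 ± 5.49 CPM with shRNA 2, 64.8 ± 5.11 CPM in 72Q control and 60.5 ± 0.956 CPM in 25Q control (SD, n = 4 each). The hairpins differed by -1.71 ± 0.06 (adjusted p = 2.08e-19), and Orai2 fell with shRNA 2 as well (-0.29 ± 0.05). Orai1 fell with shRNA 1 too (-0.60 ± 0.10), while the plasma membrane pump Atp2b2 (0.76 ± 0.06) and Ryr3 (0.68 ± 0.08) rose. With shRNA 2, Ryr2 (0.50 ± 0.06) and the sodium-calcium-potassium exchanger Slc24a2 (0.49 ± 0.05) rose and Itpr2 fell (-0.40 ± 0.06). Ryr2 rose with shRNA 1 too (0.39 ± 0.06), and Ryr3 (0.43 ± 0.08) and Atp2b2 (0.20 ± 0.06) rose with shRNA 2 too. Slc24a2 instead fell with shRNA 1 (-0.45 ± 0.05). Without the experiment as a term, 10 of the list passed with shRNA 1 and 7 with shRNA 2.

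**Figure D5:**
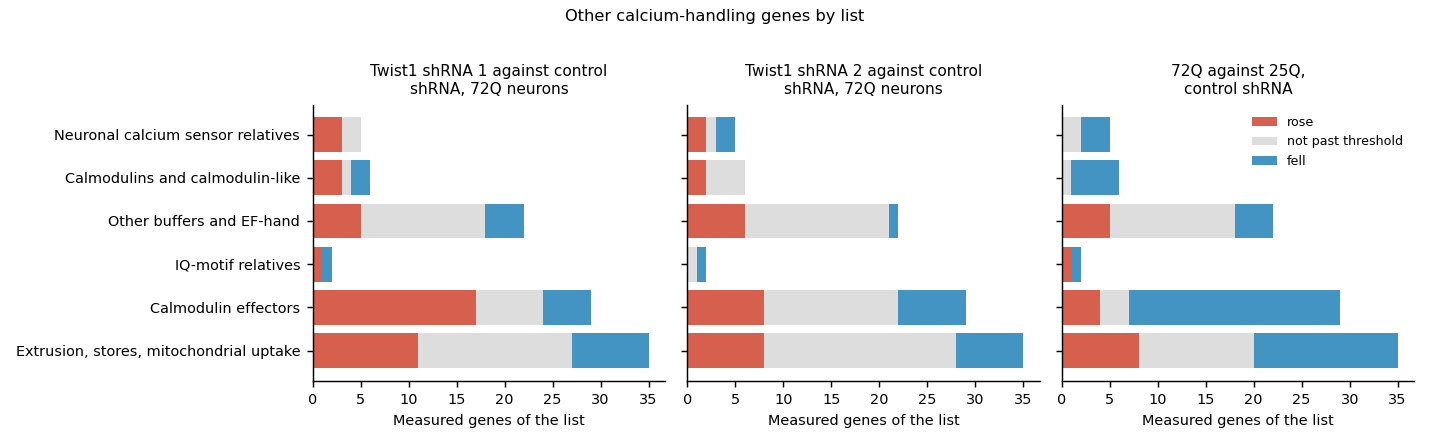
Number of measured genes in each list that rose (red), did not pass the threshold (grey) or fell (blue) for Twist1 shRNA 1 and Twist1 shRNA 2 against 72Q control, and 72Q control against 25Q control. Of 29 calmodulin effectors, 22 fell in 72Q control against 25Q control, while 17 rose with shRNA 1 and 8 with shRNA 2.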

How the data were processed

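Counts, CPM and RPKM were deposited for each of the 16 libraries, 1 file a library. The submitters' processing notes name STAR 2.0.4b, Subread with featureCounts 1.45 and the build GRCm38. The strand setting, the release of the annotation and the handling of reads with several matches are not given there or in the labels. Every fit took the raw counts per Ensembl gene as the authors deposited them. Deposited CPM equalled each count over its library total to within 2.5e-11. Deposited RPKM equalled that CPM per kilobase of listed length to within 4.7e-11, and entered no test. Symbols came from GENCODE M21 (40254 of 41388 identifiers, 97.26%), and coordinates are those in the deposited files.

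Genes were filtered with filterByExpr of edgeR 4.0.16 (R 4.3.3), scaled by TMM factors and fitted over all 16 libraries with terms for group and experiment (quasi-likelihood test, robust, prior count 2 for fold changes). P-values were adjusted over all 15103 genes (Benjamini-Hochberg, threshold 0.05). Standard errors were derived from each fold change and its F statistic. The experiment labels pair the libraries. Between libraries of different groups, deviations from group means correlated at 0.223 to 0.612 within an experiment and at -0.333 to 0.278 between experiments. These ranges overlap. Subtracting the group mean also lowers values between experiments when those within are positive, so the contrast is partly built in. Replicate libraries of a group differed by more than counting noise. The fit was also run on simulated counts with known fold changes and the same spread for every gene. Genes in these libraries differ in spread, so that run does not check the error rate here.

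Alternatives were DESeq2 1.42.0, upper-quartile factors, no scaling, no low-count filter, other blocks, only the groups compared, and leaving out each library. The members and lists were chosen with earlier results of these data known. Named list genes were up to 2 with the highest and up to 2 with the lowest fold change among those past the threshold with a mean of at least 5 CPM; Ncs1 in 72Q control, values for other comparisons of a named gene and the genes named as not passing were added to show contrasts. The gene most like a member had the highest Pearson's r over 16 libraries. Some genes that these rules name are not reported here.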

Additional observations from a re-analysis of the deposited data

Results flagged for a closer look

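Of 40 sets of 4 libraries (10 genes in 4 groups) 2 held a library far from the other 3, and chance alone flags about 1 in 20 such sets. Pcp4 in 72Q control had its lowest value in exp109b, 9.95 CPM, with a gap to the next library of 0.855 of the range of the group. Hpcal1 in 72Q control had its highest value in exp109a, 35.6 CPM, with a gap of 0.954 of the range, the other 3 libraries lying between 32.8 and 32.9 CPM.

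Ncald was above 72Q control with Twist1 shRNA 1 and below it with Twist1 shRNA 2 in all 4 experiments, a difference of 1.09 ± 0.06 on the log2 scale between the hairpins. The difference was past the threshold in the fit, and it is given as a description, because the counts of all 4 groups chose the gene.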

How the results depend on the processing

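The replicate block, here the experiment, mattered most. Without it 4561 genes were past the threshold with shRNA 1 and 3621 with shRNA 2, against 6998 and 6307 with it. Counts of the lists moved by over 1.5 times in 10 cases with no replicate block and in 7 with a block by title number, a number that does not follow the experiment in 25Q; 3 cases came from the fits without 1 library, and 1 each from DESeq2, no low-count filter and no scaling. With no scaling beyond library totals all 5 sensor relatives passed in 72Q control against 25Q control, and Efhd2 in the mean of both hairpin groups against 25Q control changed sign to 0.00890, which did not pass. Of 50 member differences, 40 were on the same side of the threshold in every alternative run, 10 changed side in at least 1, and these are named in the report. The fits without 1 library are edgeR fits that pool the spread over all groups. Of 55 results for named list genes, 47 passed in every alternative and 8 did not. Pvalb, with 4 to 17 counts per library, had the widest intervals among the 10 genes.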
